A study of Homo sapiens with 6 samples.

Results

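UCA1, H19, HULC, MALAT1, NEAT1, PVT1, MEG3 and LINC01977 are 8 long noncoding RNA (lncRNA) genes with a known link to liver or other cancers. They were taken by gene name from a table of 29153 genes, in which 11 rows carried these names because UCA1, HULC and MALAT1 each had a second, short entry. UCA1 was selected on measured values, its higher counts in the sh-LINC01977 libraries of this same table, so its values are given as a description without a test. The other 7 are cancer lncRNAs and the targeted gene, also chosen with earlier results of these data known. RNA was sequenced from HepG2, an established human cell line derived from a liver cancer, in 2 groups of 3 libraries. The sh-NC group received a lentivirus with a control hairpin and the sh-LINC01977 group a lentivirus with a hairpin against the lncRNA LINC01977, each for 72 h. Both groups thus carried a lentiviral hairpin, and infected cells were selected with puromycin. The labels number the targeting hairpin sh3, and all 6 libraries come from 1 cell line. The labels do not say whether the 3 libraries of a group came from separate cultures, so p-values measure the spread between these libraries, which may be technical.

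LncRNAs are transcripts without a long open reading frame that act through their RNA, their transcription or the proteins they bind. MALAT1 and NEAT1 stay in the nucleus, where NEAT1 is the scaffold of paraspeckles and MALAT1 gathers at nuclear speckles, the stores of splicing factors. H19 and MEG3 are imprinted genes, each expressed from the maternal allele. UCA1 and HULC are named for urothelial and liver cancer, and PVT1 lies beside MYC, the transcription factor gene whose locus is often amplified in tumors.

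The hairpin target site, the control hairpin, the LINC01977 primers and the short entries of UCA1 and HULC are shown first. In the stretch of LINC01977 below, capitals mark the exact match of the only hairpin against LINC01977 in the study's oligo list. That it is the one labelled sh3 is assumed here. The site is at chr17:79826182-79826202 (GRCh38, plus strand), bases 266 to 286 of the 1788-base transcript, in exon 3. Of the GENCODE 29 transcripts, 1 held the site, and the control hairpin matched none on either strand.
LINC01977 target site with flanks: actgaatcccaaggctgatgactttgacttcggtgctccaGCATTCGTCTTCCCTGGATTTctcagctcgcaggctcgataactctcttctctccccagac
control hairpin: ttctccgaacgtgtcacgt
LINC01977 forward primer: gtctaacgcagggggaaaca
LINC01977 reverse primer: tattgccaacaactggccct
UCA1 short entry: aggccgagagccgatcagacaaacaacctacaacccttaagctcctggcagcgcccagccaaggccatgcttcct
HULC short entry: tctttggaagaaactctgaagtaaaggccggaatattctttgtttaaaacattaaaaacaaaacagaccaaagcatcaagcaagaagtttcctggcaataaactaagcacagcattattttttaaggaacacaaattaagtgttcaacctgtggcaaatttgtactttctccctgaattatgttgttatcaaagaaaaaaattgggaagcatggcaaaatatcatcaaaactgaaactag
The primers, which the study used to measure LINC01977 by PCR, also lie in exon 3 and span 148 bases, downstream of the hairpin site. The UCA1 entry (75 bases, chr19:15834730-15834804, plus strand) is part of 28 of the 36 UCA1 transcripts in GENCODE 29. The HULC entry (240 bases, chr6:8653558-8653797, plus strand) lies inside the interval of the HULC gene. In GENCODE 29, 0 transcripts carry the HULC name, and 4 transcripts of AL591485.1 hold this stretch. Fragments from it may have been counted under either row, which was not tested.

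Total counts ranged from 49929024 to 60441515 per library. LncRNA genes took 0.996% to 1.02% of them in sh-NC libraries and 1.07% to 1.09% in sh-LINC01977 libraries. Levels are given as counts, as CPM (counts relative to library size, scaled with edgeR's TMM factors) for comparison between libraries, and as FPKM (fragments per kilobase of transcript, scaled to the library total) for comparison between genes. Of the 8 genes, 5 (UCA1, NEAT1, MALAT1, PVT1 and HULC) had a mean FPKM of at least 0.5 and were tested among 13452 genes. H19, MEG3 and LINC01977 lay below that filter and were read from a fit of all 29153 genes. A gene was called where the quasi-likelihood test of edgeR gave a p under 0.05 after Benjamini-Hochberg adjustment, and each log2 fold change is given with its standard error (SE). In bulk RNA, fewer cells expressing a gene and less RNA per cell cannot be told apart. Whether reads were counted by strand is not given in the sources used here.

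In the tested set, 15.1% of genes were called, 948 (7.05%) higher and 1085 (8.07%) lower in sh-LINC01977 libraries. When libraries were scaled by their totals instead, 1455 were higher and 768 lower. Of the 4 tested lncRNAs other than UCA1, 1 was called, MALAT1, which rose. The study's methods set their limits at a fold of 2 with P of at most 0.05, which 2.6% of tested genes passed. HULC, at a lower level in sh-LINC01977 libraries, passed these limits but not the adjusted threshold. In the fit of all genes, where 5.36% were called, H19, MEG3 and LINC01977 were not called.

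**Figure D1:**
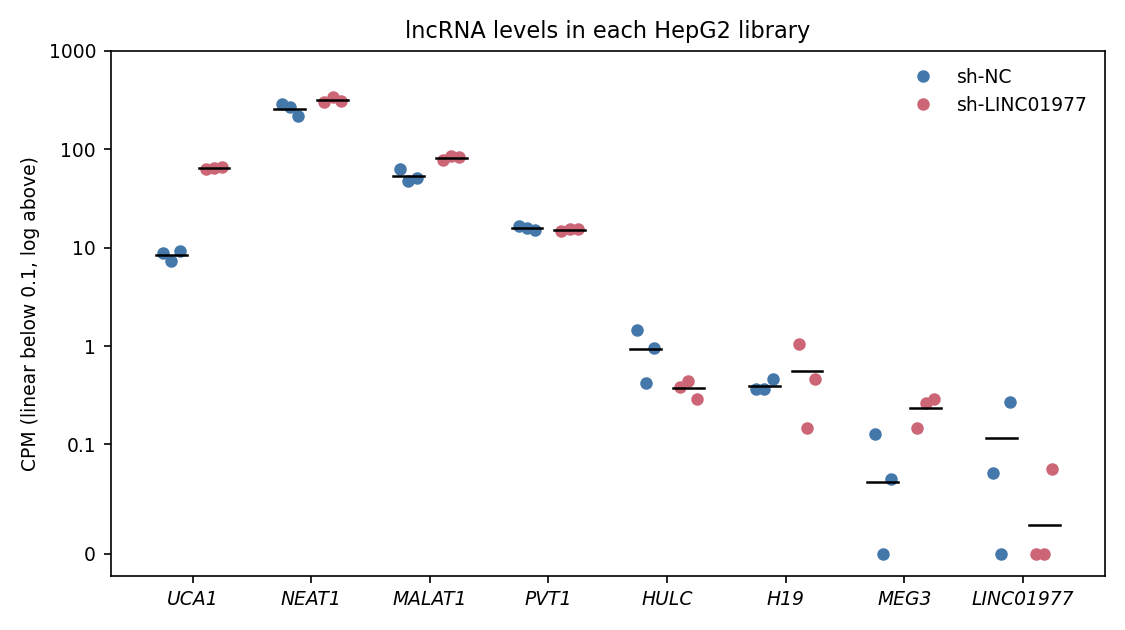
CPM of the 8 lncRNAs in each library (points, 3 sh-NC in blue and 3 sh-LINC01977 in red; black bars are group means), on an axis that is linear below 0.1 and logarithmic above. UCA1 lies between 7.28 and 9.17 CPM in sh-NC libraries and between 63.2 and 66.7 CPM in sh-LINC01977 libraries, whereas the groups of PVT1, HULC, H19 and LINC01977 overlap.

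UCA1 (ENSG00000214049, chr19:15828961-15836320, plus strand), an intergenic lncRNA, was far higher with the LINC01977 hairpin. It had 475, 359 and 540 counts with sh-NC and 3480, 3930 and 3432 counts with sh-LINC01977. Every sh-LINC01977 library was above every sh-NC library, and the 3 sh-LINC01977 libraries lay close together, with a coefficient of variation of 2.66% against 11.8% in sh-NC. The mean went from 8.39 ± 0.99 to 64.8 ± 1.7 CPM (SD, n = 3 each), a 7.72-fold higher level (log2 fold change 2.95, SE 0.10). Ranked from the highest log2 fold change it was place 8 of the 13452 tested genes and place 2 of the 1274 tested lncRNA genes. Its share of all lncRNA counts went from 0.0808% ± 0.011 to 0.610% ± 0.022 (SD, n = 3 each).

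By FPKM, UCA1 moved from place 207 among lncRNA genes in sh-NC libraries to place 20 in sh-LINC01977 libraries. The short UCA1 entry held 1 count in every library of both groups, so the difference was carried by the gene's main row. LINC01764, an lncRNA gene on the opposite strand that overlaps UCA1, had counts of 0, 0 and 0 in sh-NC and of 0, 3 and 7 in sh-LINC01977 libraries. These counts are few beside the 3432 or more of UCA1 in the latter group.

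The genes on either side of UCA1 belong to the CYP4F family, cytochrome P450 enzymes that hydroxylate fatty acids and eicosanoids. Within 200 kb, 5 genes other than UCA1 were tested, and 2 of them, CYP4F12 and CYP4F3, fell, where 8.07% of all tested genes did. CYP4F12, the nearest tested gene on the left at 131787 bases, had counts of 1299, 1246 and 1338 in sh-NC and of 665, 780 and 650 in sh-LINC01977 libraries. Its level fell from 23.9 ± 1.3 to 12.5 ± 0.38 CPM (SD, n = 3 each; log2 fold change -0.94, SE 0.080, adjusted p = 0.00133 from edgeR). CYP4F3 had counts of 893, 572 and 859 against 478, 434 and 454 (log2 fold change -0.79, adjusted p = 0.0204). The CYP4F3 call was kept without the second sh-NC library, whereas leaving out each of the other 5 libraries ended it (adjusted p 0.0517 to 0.0678).

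On the right, CYP4F2, the nearest tested gene at 41703 bases, had counts of 242, 218 and 201 against 267, 248 and 217. Its groups overlapped, with a log2 fold change of 0.10 (SE 0.17, adjusted p = 0.734). CYP4F11, farther along, had a log2 fold change of 0.15 (adjusted p = 0.337).

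MALAT1 (ENSG00000251562, chr11:65497762-65506516, plus strand), the speckle-associated lncRNA, rose. It had 3462, 2328 and 2998 counts with sh-NC and 4256, 5150 and 4281 counts with sh-LINC01977. On the CPM scale the lowest sh-LINC01977 library (77.3) was above the highest sh-NC library (63.6). Of all tested genes, 37.1% had groups that did not overlap in CPM. The mean rose from 53.9 ± 8.6 to 81.7 ± 3.9 CPM (SD, n = 3 each). This is a log2 fold change of 0.60 (SE 0.12, adjusted p = 0.0170 from edgeR), and the exact permutation test gave 0.1, the lowest two-sided p that 3 against 3 libraries can reach. The call was lost without the second sh-LINC01977, the third sh-LINC01977 or the third sh-NC library, with adjusted p of 0.0609, 0.0571 and 0.0586. The short MALAT1 entry held 2 counts in every library.

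NEAT1 (ENSG00000245532, chr11:65422774-65445540, plus strand), the paraspeckle scaffold, lies 52222 bases from MALAT1. It had the highest FPKM of the 8 lncRNAs in sh-NC libraries and was second of all lncRNA genes by counts in both groups. NEAT1 counts were 15600, 13325 and 12899 in sh-NC and 16470, 20514 and 15819 in sh-LINC01977 libraries. In CPM the groups lay apart, as in 37.1% of all tested genes, from 219 to 286 against 299 to 337. The means were 259 ± 35 and 315 ± 20 CPM (SD, n = 3 each), with a log2 fold change of 0.28 (SE 0.10) that did not pass the adjusted threshold (adjusted p = 0.122 from edgeR; exact two-sided permutation test p = 0.1). Count and FPKM together imply a counted length of 22759 bases, near the 22743 bases of the longest NEAT1 transcript, so short and long isoforms were not separated.

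The ratio of MALAT1 to NEAT1 CPM was 0.210 ± 0.031 in sh-NC and 0.260 ± 0.0099 in sh-LINC01977 libraries (SD, n = 3 each). Of 18 tested paraspeckle proteins, 1 was called (5.56%, against 15.1% of all tested genes). This was NONO, a core paraspeckle protein, which fell with a log2 fold change of -0.23 (adjusted p = 0.0269 from edgeR). The NONO call held only without the third sh-NC library among the 6 libraries left out in turn, and the others gave adjusted p of 0.0600 to 0.0766. Of 18 tested nuclear speckle proteins, edgeR called 0 and DESeq2 called 0, and 1 had an unadjusted p under 0.05. The median log2 fold changes of these lists were -0.016 and -0.032, against -0.0010 over all tested genes.

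**Figure D2:**
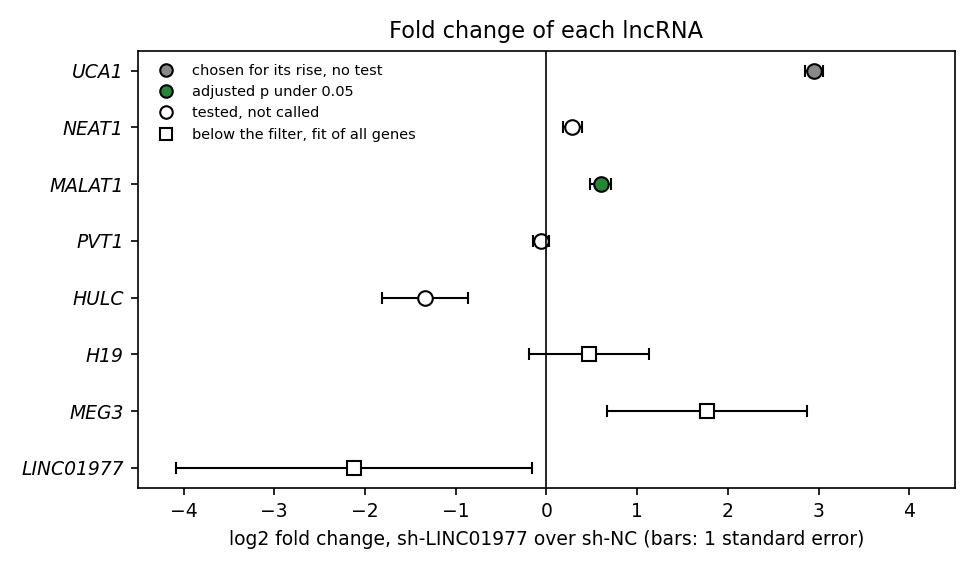
Log2 fold change of each lncRNA, sh-LINC01977 over sh-NC (bars, 1 standard error). Circles were fitted among the tested genes and squares in the fit of all genes; MALAT1 at 0.60 is the called gene, UCA1 at 2.95 was chosen for its level, and the bars of H19 and PVT1 cross 0.

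PVT1 (ENSG00000249859, chr8:127794533-128101253, plus strand) had nearly level values. Its counts were 913, 780 and 880 in sh-NC and 811, 944 and 789 in sh-LINC01977 libraries. The groups overlapped, with means of 15.8 ± 0.91 and 15.2 ± 0.40 CPM (SD, n = 3 each) and a log2 fold change of -0.060 (SE 0.084, adjusted p = 0.673 from edgeR). The sign turned to 0.0059 with scaling by library totals, so no direction is given.

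MYC, which lies 53099 bases from PVT1, had counts of 9411, 8727 and 9976 in sh-NC and of 8728, 9778 and 373 in sh-LINC01977 libraries. In CPM these were 173, 177 and 169 in sh-NC and 159, 161 and 7.24 in sh-LINC01977 libraries. The groups thus did not overlap, as in 37.1% of all tested genes. The third sh-LINC01977 library stood far below the other 5, while its PVT1 count did not. The ratio of PVT1 to MYC CPM was 0.0882 to 0.0970 in those 5 libraries and 2.12 in the third sh-LINC01977 library. The log2 fold change of MYC was -0.67 (SE 0.89, adjusted p = 0.659). The cause of this single low MYC count was not tested.

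HULC (ENSG00000251164, chr6:8652137-8653846, plus strand), an lncRNA found for its high level in liver cancer, was near the filter. Its counts were 79, 21 and 56 in sh-NC and 21, 27 and 15 in sh-LINC01977 libraries. The second sh-NC library overlapped the sh-LINC01977 libraries, and the means were 0.943 ± 0.51 and 0.372 ± 0.077 CPM (SD, n = 3 each). The log2 fold change was -1.33 (SE 0.47, adjusted p = 0.111 from edgeR; exact two-sided permutation test p = 0.2). Without the second sh-NC library it was -1.68 (adjusted p = 0.0396).

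The short HULC entry shown above had counts of 2, 26 and 77 in sh-NC and of 3, 2 and 25 in sh-LINC01977 libraries. It held 2.47% to 62.5% of the fragments of both rows together, so the split between the rows differed widely between libraries. With both rows summed, an alternative added after the data were seen, HULC had counts of 81, 47 and 133 against 24, 29 and 40. The groups then no longer overlapped, as in 37.1% of all tested genes, with 1.57 ± 0.66 and 0.563 ± 0.19 CPM (SD, n = 3 each). The log2 fold change of the sum was -1.48 (SE 0.40, adjusted p = 0.0539 from edgeR).

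H19 (ENSG00000130600, chr11:1995163-2001470, minus strand), a fetal liver lncRNA that hosts the microRNA gene MIR675, was low. Its counts were 20, 18 and 27 in sh-NC and 58, 9 and 24 in sh-LINC01977 libraries. The first sh-LINC01977 library was the highest and the second the lowest of all 6. The log2 fold change was 0.46 (SE 0.66, adjusted p = 0.743 from edgeR), and without the first sh-LINC01977 library it was -0.39 (adjusted p = 0.815). MIR675 had at most 1 count in any library.

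IGF2, the fetal growth factor gene that shares its imprinting control with H19, had a mean of 24.1 FPKM in sh-NC libraries, against 0.107 FPKM for H19. Its counts were 11440, 12728 and 6101 in sh-NC and 10095, 10412 and 3340 in sh-LINC01977 libraries, with the third library of each group lowest. The log2 fold change was -0.45 (adjusted p = 0.559). TNNI2, a troponin gene 153483 bases from H19, fell, with a log2 fold change of -1.12 (adjusted p = 0.0462). Leaving out any library but the third sh-NC library ended the TNNI2 call (adjusted p 0.0584 to 0.134), as did 4 of 9 other settings (adjusted p 0.0508 to 0.0772).

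MEG3 (ENSG00000214548, chr14:100779410-100861031, plus strand), an imprinted lncRNA regarded as a growth suppressor, was close to undetected. Its counts were 7, 0 and 4 in sh-NC and 8, 16 and 15 in sh-LINC01977 libraries. The groups did not overlap in CPM. Among tested genes, a set without MEG3, 37.1% had such groups. The log2 fold change of 1.77 had an SE of 1.10 (adjusted p = 0.453 from edgeR; exact two-sided permutation test p = 0.1). If each count were a separate fragment, a count of 0 would allow up to 3. Single counts here need not be separate fragments, so the bound can be wider and these values carry little precision. DLK1, the paternally expressed partner of MEG3 in the same imprinted cluster, had 6757 to 9205 counts and a log2 fold change of 0.15 (adjusted p = 0.145).

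LINC01977 (ENSG00000262772, chr17:79823452-79827704, plus strand), the targeted gene, had 4, 0 and 16 counts in sh-NC and 0, 0 and 4 in sh-LINC01977 libraries. At most 16 counts were seen in any library, and the groups overlapped. The fitted log2 fold change was -2.12 (SE 1.96, adjusted p = 0.580), so a difference was not detectable at this depth in these libraries. The study reported that qRT-PCR verified its LINC01977 knockdown in HepG2, and those values were not analysed here. Without the third sh-LINC01977 library the fitted log2 fold change was -5.73 and without the third sh-NC library -0.52. CBX8, a Polycomb gene 21769 bases from LINC01977, was not called (log2 fold change -0.35, adjusted p = 0.0569).

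The order of the lncRNAs by FPKM, a level per length, differed between the groups mainly in UCA1. In sh-NC libraries NEAT1 was highest at 9.01 ± 1.2 FPKM, followed by MALAT1 at 4.88 ± 0.73, UCA1 at 2.89 ± 0.34, PVT1 at 2.26 ± 0.10 and HULC at 1.32 ± 0.72 (SD, n = 3). In sh-LINC01977 libraries UCA1 was highest at 23.4 ± 0.88 FPKM, followed by NEAT1 at 11.5 ± 0.61, MALAT1 at 7.74 ± 0.36, PVT1 at 2.27 ± 0.065 and HULC at 0.533 ± 0.11 (SD, n = 3). The ranges of neighbors among these 5 did not overlap in either group. H19, LINC01977 and MEG3 had means of at most 0.155 FPKM in both groups. At this low end, the ranges of H19 and LINC01977 overlapped in sh-NC libraries, as did those of LINC01977 and MEG3 in both groups.

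**Figure D3:**
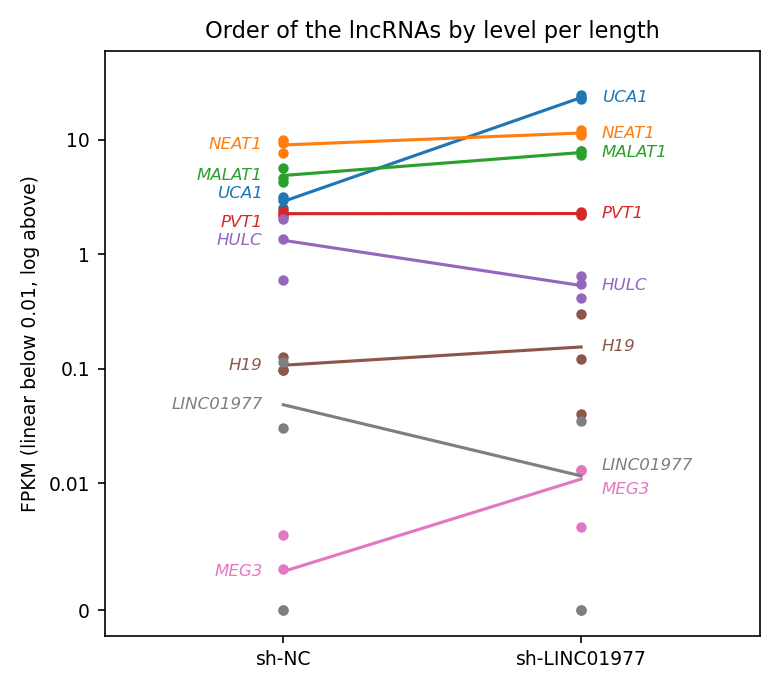
FPKM of the 8 lncRNAs (points, single libraries; lines join group means), on an axis that is linear below 0.01 and logarithmic above. UCA1 lies below NEAT1 and MALAT1 in sh-NC libraries at 2.89 FPKM and above both in sh-LINC01977 libraries at 23.4 FPKM, whereas PVT1 stays near 2.27.

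Around all 8 lncRNAs, 83 genes lay within 200 kb, counting MALAT1, NEAT1 and the short entries. Leaving out rows with a member's name, 37 were tested, of which 4 rose and 4 fell, or 21.6% against the 15.1% of all tested genes. The 4 that rose, and 1 of the 4 that fell, lay around MALAT1 and NEAT1. POLA2, a DNA polymerase alpha subunit, rose from 21.2 ± 1.1 to 31.2 ± 0.54 CPM (log2 fold change 0.56, adjusted p = 0.00403). LTBP3, a TGF-beta binding protein, rose from 48.2 ± 2.6 to 70.2 ± 2.8 CPM (0.54, adjusted p = 0.00316). MAP3K11, a kinase of the JNK pathway, fell from 71.7 ± 5.1 to 42.2 ± 4.9 CPM (-0.77, adjusted p = 0.00452; SD, n = 3 each). EHBP1L1 and SIPA1 rose by smaller steps, with log2 fold changes of 0.35 and 0.40 (adjusted p = 0.0301 and 0.0332), and each lost its call whichever library was left out (adjusted p 0.0533 to 0.0929). FRMD8, a neighbor of NEAT1, was not called (log2 fold change -0.50, adjusted p = 0.605).

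**Figure D4:**
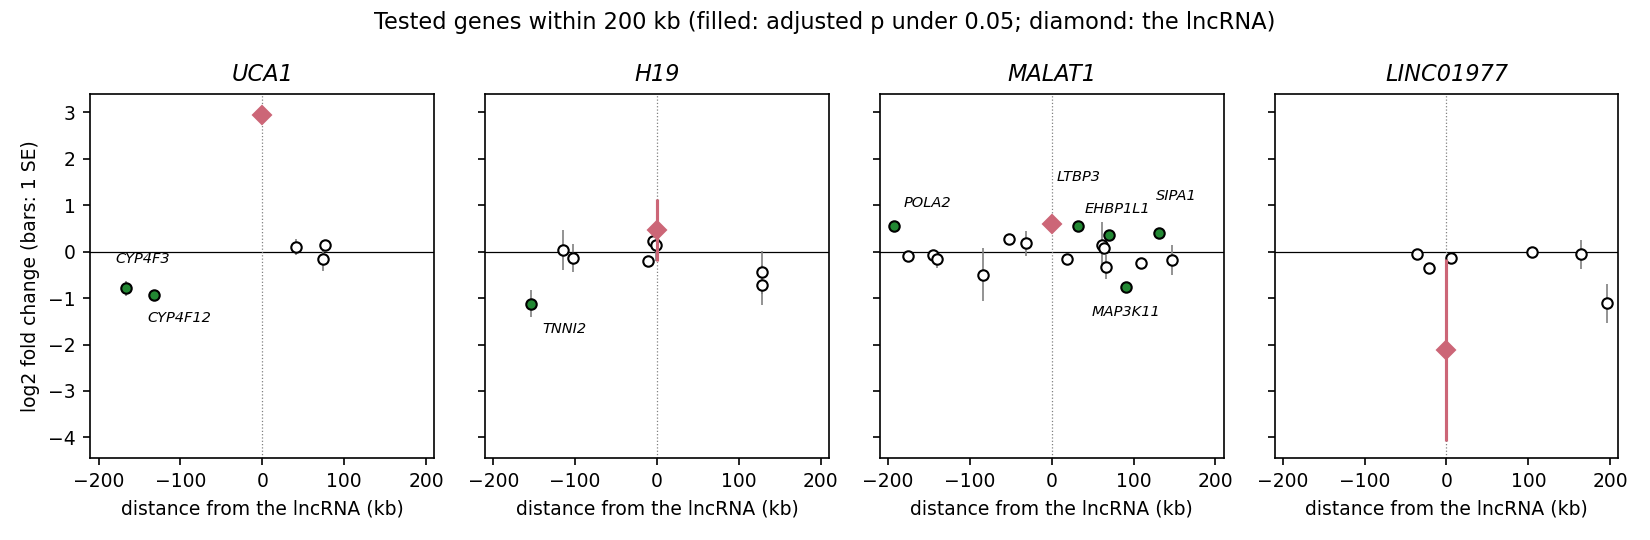
Log2 fold change (bars, 1 standard error) of tested genes within 200 kb of UCA1, H19, MALAT1 and LINC01977, by distance in kb from the lncRNA (red diamond), with called genes filled. CYP4F3 and CYP4F12 lie below 0 to the left of UCA1, and around MALAT1 POLA2, LTBP3, EHBP1L1 and SIPA1 lie above 0 and MAP3K11 below.

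Other lncRNAs linked to cancer were listed for comparison, and 21 of the 50 found in the table were tested. Of these, 2 rose and 3 fell, with a median log2 fold change of 0.015. The share called was 23.8%, against 15.1% of all tested genes and 7.06% of tested lncRNA genes. NORAD, an abundant lncRNA that binds Pumilio proteins, had 28050 to 32406 counts in sh-NC and 33519 to 40883 in sh-LINC01977 libraries (log2 fold change 0.23, adjusted p = 0.00931). LUCAT1, an lncRNA found in lung cancer, had counts of 223, 198 and 284 against 425, 526 and 362 (0.85, adjusted p = 0.0107). HAGLR, in the HOXD cluster, fell from 117 ± 7.6 to 63.7 ± 4.1 CPM (SD, n = 3 each; -0.88, adjusted p = 0.00129). TUG1 also fell, with a log2 fold change of -0.21 (adjusted p = 0.0316), and lost its call with any library left out (adjusted p 0.0531 to 0.0961) and with scaling by library totals.

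Of 13 tested imprinted genes, 2 fell (15.4%, near the 15.1% called of all tested genes) and the median log2 fold change was -0.15. SNRPN, a splicing protein gene, had a log2 fold change of -0.27 (adjusted p = 0.00688). MEST had -0.38 (adjusted p = 0.0232) and kept its call without the first sh-NC library only, with adjusted p of 0.0534 to 0.0786 without each of the others. A list of possible partner proteins of these lncRNAs had 16 tested genes with 12.5% called. Of these, CNOT1, the scaffold of the CCR4-NOT deadenylase, rose (0.17, adjusted p = 0.0204) and RALY, an hnRNP protein, fell (-0.43, adjusted p = 0.0159). In MHCC97H, another liver cancer cell line, the study reported that LINC01977 bound RBM39 and IGF2BP2 but not RALY or DHX9. All of these are on this list, and RBM39, IGF2BP2 and DHX9 were not called here. The CNOT1 call was lost with any library left out (adjusted p 0.0530 to 0.0708), and the RALY call without the second sh-LINC01977, the second sh-NC or the third sh-NC library (adjusted p 0.0506 to 0.0517).

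UCA1 is a known target of hypoxia signaling and several of the 8 lncRNAs act in the p53 response, so genes of both responses were listed. Of 20 tested hypoxia-response genes, 1 rose, SLC2A1, the glucose transporter (log2 fold change 0.34, adjusted p = 0.0273), and leaving out any library but the third sh-LINC01977 library ended this call (adjusted p 0.0539 to 0.0680). The median of this list was -0.0074. Of 20 tested p53-response genes, 2 rose and 3 fell, with a median of -0.094. The shares called by edgeR were 5.0% of the hypoxia list and 25.0% of the p53 list, against 15.1% of all tested genes. DESeq2 called 3 of the 20 hypoxia genes and 8 of the 20 p53 genes, and its share over all tested genes is not given here. RRM2B, a ribonucleotide reductase subunit, rose (0.71, adjusted p = 0.00248), as did XPC, a DNA damage sensor (0.27, adjusted p = 0.0185). The death receptor gene FAS and the antiproliferative gene BTG2 fell, with log2 fold changes of -0.81 and -0.62 (adjusted p = 0.00932 and 0.00929). The XPC call was lost without the first sh-LINC01977, the third sh-LINC01977, the first sh-NC or the second sh-NC library (adjusted p 0.0555 to 0.0613).

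**Figure D5:**
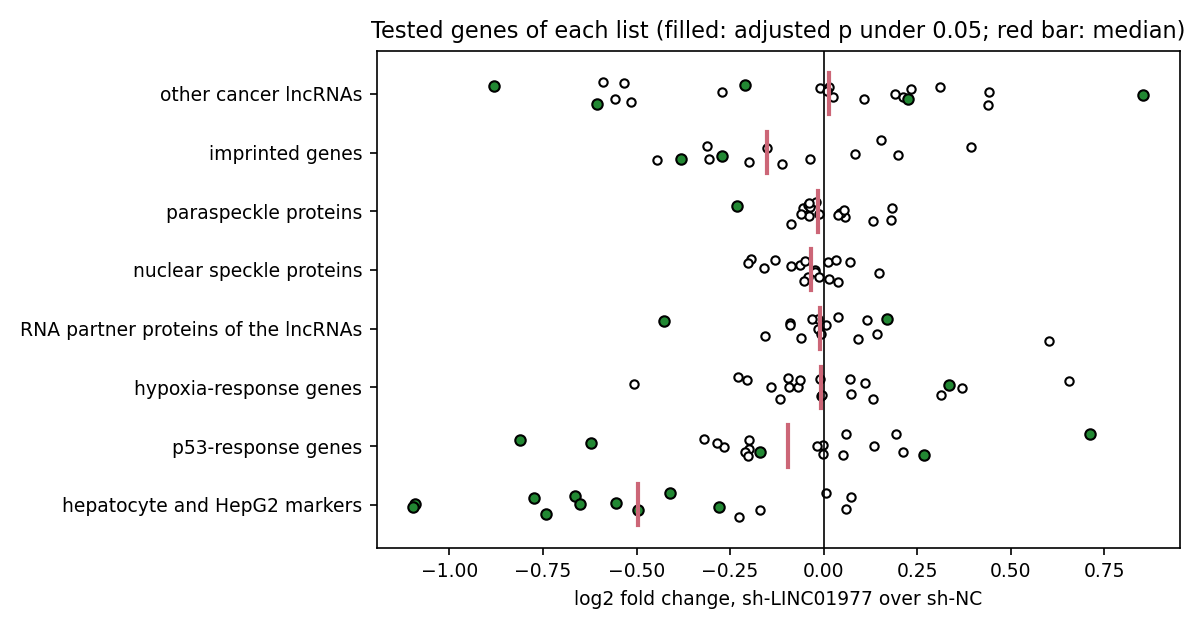
Log2 fold change of the tested genes of 7 gene lists and of the hepatocyte and HepG2 markers (points; filled where the adjusted p was under 0.05; red bars are list medians). The medians of the 7 lists run from -0.15 for imprinted genes to 0.015 for other cancer lncRNAs, and that of the hepatocyte and HepG2 markers is -0.50.

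The libraries carried the markers of HepG2. Of the markers of other cell types found in the table, those that reached the filter at a mean FPKM of 0.5 were 3 of 7 mesenchymal, 4 of 5 leukocyte, 2 of 6 squamous and urothelial and 0 of 3 endothelial genes. Of 15 hepatocyte and HepG2 markers, all tested, 10 fell, with a median log2 fold change of -0.50 and 66.7% called, against 15.1% of all tested genes (8.07% lower). ALB, albumin, fell from 6188 ± 238 to 2901 ± 82.3 CPM and FGB, fibrinogen beta, from 232 ± 12 to 109 ± 9.1 CPM (SD, n = 3 each; log2 fold changes -1.09 and -1.10, adjusted p = 0.000175 and 0.000692). The summed FPKM of these markers was 5815 to 6299 in sh-NC and 4511 to 4521 in sh-LINC01977 libraries, so it moved with the difference in UCA1, MALAT1 and the neighbors above, and its part in them was not tested. Summed mesenchymal markers were 20.1 to 20.3 FPKM against 20.8 to 25.9, with PDGFRB called higher (1.47, adjusted p = 0.00620), ACTA2 highest by level at 16.7 and 16.5 FPKM, and COL1A2, DCN and LUM not listed or at 0. The leukocyte sum, 626 to 634 against 543 to 559 FPKM, was mostly lysozyme (LYZ, -0.27, adjusted p = 0.00537), while CD3E was not listed or at 0. The other 3 tested leukocyte markers were not called by edgeR, among them CD68 and CD14 with log2 fold changes of 0.44 and -0.40 (adjusted p = 0.0627 and 0.409), whereas DESeq2 called 2 of the 4 in all. The remaining tested marker was higher in sh-LINC01977 libraries and passed the study's limits, a fold of 2 with an unadjusted P of at most 0.05 from edgeR. The median of the 4 was 0.085. Of squamous and urothelial markers 2 were tested, with 0 called by edgeR, 0 by DESeq2 and 0 at an unadjusted p under 0.05. They summed to 3.34 to 4.15 against 4.69 to 5.65 FPKM, with KRT14, KRT6A, UPK1B and DSG3 not listed or at 0, and endothelial markers to 0.266 to 0.441 against 0.220 to 0.315 FPKM, with KDR not listed or at 0.

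The tested genes whose pattern over the 6 libraries was most like that of UCA1 were AC005632.2, CD52, MCHR1, KRT81 and TFPI2. Likeness, taken for genes with a count in all 6 libraries, was the root mean square difference in log2 CPM after centering each gene on its own sh-NC mean, and it ran from 0.337 for AC005632.2 to 0.523 for TFPI2. AC005632.2, a noncoding gene, had counts of 21, 9 and 15 in sh-NC and of 116, 94 and 83 in sh-LINC01977 libraries. KRT81, a hair keratin gene, had 31, 23 and 36 against 149, 150 and 130. All 5 had a mean sh-NC FPKM under 0.5 and passed the filter only through the sh-LINC01977 libraries, where they were high. With the filter set at a mean FPKM of 1 the nearest were KLK6, ALDH3A1, NRGN, KRT37 and SNCG, and 0 of the first 5 remained. KLK6, ALDH3A1, NRGN and KRT37 had mean sh-NC FPKM of 0.995, 0.710, 0.490 and 0.414. They too passed that filter only through the sh-LINC01977 libraries, whereas SNCG had 1.56 FPKM in sh-NC libraries.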

How the data were processed

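Total RNA of 6 HepG2 libraries was sequenced on an Illumina HiSeq instrument. The submitters' processing notes name bcl2fastq 2.0, HISAT2, StringTie, DESeq2, limma and hg38 with no role, and the authors deposited 1 table. It holds unnormalized gene counts and, also made by the authors, FPKM scaled to gene length and library total. The value 4 occurred 8101 times among the counts, 3 occurred 2780 times and 5 occurred 1758 times, so single counts need not be separate fragments. Of 29153 gene identifiers, 29051 were in GENCODE 29, 28118 of them with the same start and end; the HULC identifier was not.

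The quasi-likelihood test of edgeR 4.0.16 in R 4.3.3, with TMM factors, compared sh-LINC01977 with sh-NC without covariates. It took the 13452 genes whose mean FPKM reached 0.5, and p-values were adjusted by Benjamini-Hochberg over all of them. Standard errors are the absolute log2 fold change over the square root of F. The script was tested on simulated data. For the lncRNAs other than UCA1, CPM were compared by exact permutation (two-sided), for which 0.1 is the smallest p. Genes named are the 8 lncRNAs, called genes within 200 kb and the nearest tested genes beside UCA1, overlapping genes, up to 2 called genes per list and direction, and the 5 genes most like UCA1. MYC, IGF2, DLK1, CYP4F11, FRMD8, CBX8 and the like-UCA1 genes above an FPKM of 1 were added after their values were seen. The members and lists were chosen with earlier results of these data known. Hairpins and primers were read from the study's supplement, and other sequences from GENCODE 29 transcripts. Alternatives were DESeq2 1.42.0, limma 3.58.1 on log2(FPKM + 0.1, 1 or 0.01), RLE scaling, library totals, other filters, a replicate block and each library left out.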

Additional observations from a re-analysis of the deposited data

How the results depend on the processing

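With limma on log2(FPKM + 1), the log2 fold change of UCA1 was 2.65, against 2.86 to 3.02 with a library left out. PVT1 changed sign with library totals (0.0059) and with limma at pseudocounts of 0.1, 1 and 0.01 (0.0041, 0.0028 and 0.0043). With a library left out, H19 ranged from -0.39 to 0.92, HULC from -1.68 to -0.89, MALAT1 from 0.51 to 0.74, and the lncRNAs called other than UCA1 from 0 to 2. Deviations of same-numbered libraries from their group means had correlations of -0.032, 0.011 and 0.056, against -0.064 to 0.054 for the other pairs. Whether same-numbered libraries shared a culture or a run is not given. With the replicate block, MALAT1 had a log2 fold change of 0.61 (adjusted p = 0.0507 from edgeR) and 0 of these lncRNAs were called. Genes called numbered 2033, and 1176 to 1398 with a library left out, where called neighbors, 9 with MALAT1 itself, numbered 4 to 6. Genes past a fold change of 2 numbered 350, and 100 with limma on log2(FPKM + 1), 1083 with no filter and 225 with a filter at an FPKM of 1. None of the genes most like UCA1 (0 of 5) was shared with the nearest at a mean FPKM of at least 1. By counts per length of the longest transcript, averaged over all 6 libraries, MALAT1 moved from place 3 to 4 and PVT1 from place 4 to 3. This alternative order was not taken for each group. Of 31 other named genes with a call, 20 were called in every setting run and 11 lost it in at least 1, of which MEST, NONO and TUG1 did so with library totals and limma at all 3 pseudocounts, and TNNI2 with library totals and limma on log2(FPKM + 1). Depth limits H19, MEG3 and LINC01977, with at most 58 counts in a library. For the other alternatives the directions of UCA1, MALAT1, NEAT1, HULC, MEG3 and LINC01977 did not change. The cause of these differences was not tested.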

Other observations

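Across lncRNA genes as a class, 1274 were tested, of which 52 were called higher and 38 lower in sh-LINC01977 libraries, or 7.06% against 15.1% of all tested genes. Their median log2 fold change was 0.025. Among lncRNA genes whose mean FPKM reached 1, those with the largest log2 fold change after UCA1 were AL162258.1, AC108865.1 and UBL7-AS1, and since they were chosen by that value no test is given. AC108865.1 had counts of 200, 183 and 192 in sh-NC and of 573, 721 and 555 in sh-LINC01977 libraries. UBL7-AS1 had 89, 103 and 166 against 403, 377 and 289. AL162258.1 had 43, 27 and 7 against 33, 334 and 31, so its mean rests on the second sh-LINC01977 library.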
